A study of Columba livia with 12 samples.

Results

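The 60 genes described here are well-expressed genes of pigeon flight muscle whose median level was lowest in trained, raced birds relative to untrained birds. They were chosen from 15392 genes in the count tables by their own levels. A gene's level is given as CPM, its count scaled to the library's total count over genes. Genes with a mean of the 2 group medians of at least 100 CPM and a trained median of at least 1 CPM were kept, and the 100 genes with the highest untrained median were left out, which left 1463 genes, called well-expressed here. The 60 with the lowest log2 ratio of trained to untrained median, after adding 0.5 CPM to each, are the members, numbered from 1 for the lowest ratio. The remaining 1403 served for comparison.

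Each library was made from the pectoral muscle of 1 bird of Columba livia, and all birds came from the same private loft and were kept and fed alike. The untrained group held 5 adult birds that had never been trained for racing (birds 2, 3, 4, 5 and 12). The trained group held 7 birds with earlier flight training, basketed the day before, transported and sampled after a race of 300 km (birds 6, 7, 8, 9, 10, 11 and 13). Training, basketing, transport and the race went together in that group and cannot be told apart, and the labels give no sex and no time between landing and sampling.

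The pectoral muscle powers the downstroke of the wing. In pigeons it is built mostly of fast fibres rich in mitochondria, with a smaller number of large fibres that rely on glycolysis, and fatty acids are the main fuel of sustained flight in birds. Transcripts for fuel use, stress responses and fibre structure are those usually followed in exercised muscle. The genes in these files carry locus tags only. None of the 15392 tags (0) matched the 22830 genes of the table used for names, so the roles of the members are unknown here and the muscle could not be checked against its marker genes. The locus tag is given for members 1 and 2, and the other members go by number.

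Total counts over genes ranged from 13611534 to 29169918 per library. The lowest count of any member in any library was 12 reads (member 3 in trained bird 13), where counting error alone is 28.9%, and the median over members of their lowest count was 716.5 reads. Earlier results on these libraries showed untrained bird 5 nearer to the trained birds than to its own group, and trained bird 13 apart from all others. The label of untrained bird 5 was kept as given. Its level lay inside the range of the trained birds in 48 of 60 members, beside 83.7% of the well-expressed genes. Whether that label is right was not tested, and every untrained mean, SD and fold change given for 5 birds includes it. Some results on the members, such as the calls and the spread, are therefore also given without untrained bird 5 and trained bird 13. The fold change and SE printed for a single member are those of all 12 birds.

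Together the members took up a smaller share of the libraries of trained birds. Their summed level was 26425, 24867, 24318 and 19727 CPM in untrained birds 2, 3, 4 and 12, and 8150 CPM in untrained bird 5. Trained birds 6, 7, 8 and 9 had 8311, 8755, 8269 and 8312 CPM, and trained birds 10, 11 and 13 had 6050, 5595 and 4903 CPM. Untrained bird 5 thus lay inside the range of the trained birds, whereas the other 4 untrained birds lay above all of them by more than 2-fold. The members held 2.07% ± 0.744 (SD, n = 5) of all gene counts in the untrained and 0.717% ± 0.159 (SD, n = 7) in the trained group; the untrained value was 2.38% ± 0.288 (SD, n = 4) without bird 5. These levels chose the members, so the difference is a description and carries no test. In whole muscle, fewer cells of a type and less RNA per cell cannot be told apart.

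**Figure D1:**
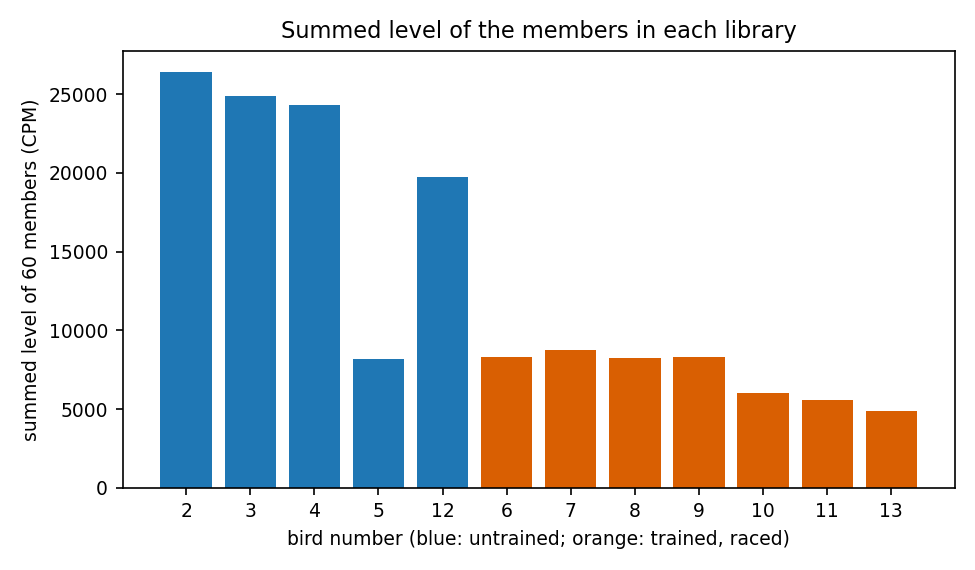
Summed level of the 60 members in CPM (vertical axis, from 0) in each of the 12 libraries, with untrained birds in blue and trained, raced birds in orange; each bar is 1 bird. Untrained birds 2, 3, 4 and 12 stand at 19727 to 26425 CPM, and untrained bird 5, at 8150 CPM, stands with the trained birds at 4903 to 8755 CPM.

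The trained birds were not alike in the summed level. Bird 13 had the lowest sum on plain CPM, but its TMM factor, a scaling factor that corrects for a few abundant genes taking up the counts, was 0.752 against 0.98 to 1.07 in the other libraries. On TMM-scaled CPM bird 13 stood at 6520, above birds 10 and 11 at 5635 and 5572 and below birds 6, 7, 8 and 9 at 8025 to 8341. The lower sums of birds 10 and 11 were thus present on both scales, and the rank of bird 13 was not.

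The untrained medians of the members ran from 150 to 1078 CPM with a median of 281 CPM, and the trained medians from 13.2 to 370 CPM with a median of 99.9 CPM. By untrained median they ranked from 116 to 958 among all genes. The ratio of the untrained to the trained median was above 2 in all 60 members, above 4 in 11, above 8 in 4 and above 16 in 2. The log2 ratio ran from -5.46 to -1.07 with a median of -1.41, while over all 1463 well-expressed genes its median was 0.03. The same number of genes at the other end had log2 ratios of 1.61 to 6.39, with a median of 2.01. The rule set a minimum for the trained median and removed the genes highest in untrained birds. Both ends were therefore not filtered alike, and the sizes of their ratios cannot be compared.

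**Figure D2:**
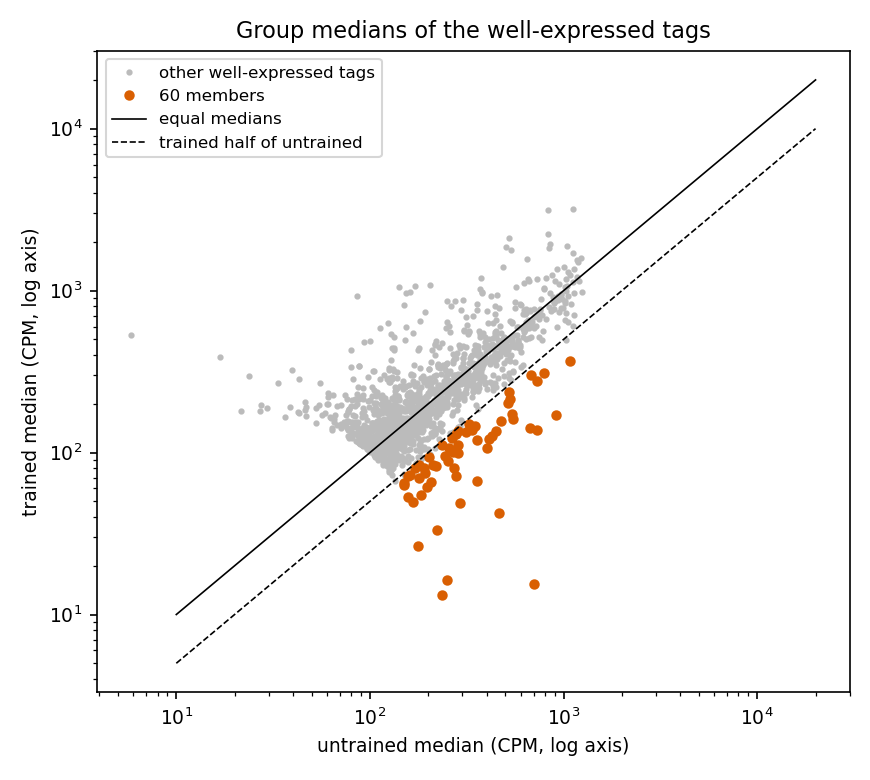
Untrained median (horizontal) against trained median (vertical) in CPM on log axes, 1 point per well-expressed gene, with the 60 members in orange, the other 1403 in grey, a solid line at equal medians and a dashed line at a 2-fold lower trained median. The 60 members, chosen for the lowest ratios, lie below the dashed line, and 4 of them lie more than 8-fold below equality.

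In the fit across all 11047 genes with enough counts, 41 of the 60 members were called lower in trained birds (adjusted p under 0.05; Benjamini-Hochberg adjustment of the edgeR quasi-likelihood test), beside 3.48% of all genes tested. None (0) was called higher, beside 2.98% of all genes. The members were chosen on this contrast, so nothing is read from these counts. The fitted log2 fold changes of the members ran from -4.49 to -0.85 with a median of -1.35, and their SE from 0.2 to 0.83, against a median of 0.04 over all genes tested. Among the other 1403 well-expressed genes, 26 were called lower and 60 higher. The members had been taken out at the low end only, so these lower and higher counts cannot be compared.

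The number of members called depended on single birds of the untrained group. It was 20, 17, 17 and 24 without untrained birds 2, 3, 4 and 12, beside 0.984%, 0.761%, 0.787% and 1.3% of all genes tested, whose calls were fewer in these fits too. It was 52 without untrained bird 5, beside 7.15%. With 1 trained bird left out it ran from 28 (without bird 11) to 47 (without bird 13), where 154 and 605 of all genes were called lower. Without untrained bird 5 and trained bird 13 together it was 55, beside 12.3% of all genes. DESeq2 called 48 members, beside 6.29% of the genes it tested. The median log2 fold change of the members moved little, from -1.52 to -1.3 with 1 library left out, and all 60 fold changes were below 0 in every fit. The choice of members makes that direction nearly certain.

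Member 1, locus tag A306_00003043, had the lowest ratio. Its level was 954, 862 and 703 CPM in untrained birds 2, 3 and 4, 127 CPM in untrained bird 12 and 14.4 CPM in untrained bird 5. The trained birds had 28.8, 15.5, 11.3, 18.2, 14.8 and 7.48 CPM in birds 6 to 11, and 54.7 CPM in bird 13. Untrained bird 5 lay inside the trained range, untrained bird 12 lay between the groups, and 3 birds carried the high untrained median. The log2 fold change was -4.49 ± 0.83 (SE), from means of 532 ± 433 CPM (SD, n = 5) and 21.5 ± 16.1 CPM (SD, n = 7).

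Member 2, locus tag A306_00003205, showed a more even untrained group. Untrained birds 2, 3, 4 and 12 had 236, 243, 321 and 232 CPM, and untrained bird 5 had 20.7 CPM. The trained birds had 15.7, 14.4, 14.9, 4.49 and 13.2 CPM in birds 6 to 10, 1.6 CPM in bird 11 and 8.6 CPM in bird 13. No trained bird reached the lowest untrained bird, though untrained bird 5 was much nearer to the trained birds than to its own group. The log2 fold change was -4.31 ± 0.61 (SE).

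In members 3 to 5 the untrained birds other than bird 5 all stood above the trained birds, with a wider spread in member 4. Member 3 was at 270, 197, 293 and 250 CPM in untrained birds 2, 3, 4 and 12, at 21.7 CPM in untrained bird 5, and at 0.882 CPM (trained bird 13) to 36.9 CPM (trained bird 9) with a median of 16.4 CPM in trained birds. Member 4 was at 522, 521, 466 and 282 CPM in the same 4 untrained birds, at 28.3 CPM in untrained bird 5 and at 22.4 to 78.2 CPM in trained birds, with a median of 42.6 CPM. Member 5 was at 249, 213, 258 and 222 CPM, at 43.1 CPM in untrained bird 5 and at 9.28 to 71 CPM in trained birds, with a median of 33.2 CPM. In all 3 of these members untrained bird 5 lay inside the trained range and the groups did not overlap otherwise. Their log2 fold changes were -3.61 ± 0.67, -2.91 ± 0.54 and -2.28 ± 0.51 (SE).

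Members 6 to 8 overlapped between the groups in untrained bird 5 alone too. Member 6 was at 222, 177 and 220 CPM in untrained birds 2, 3 and 4, at 69.2 CPM in bird 12 and 33 CPM in bird 5, against 18.7 to 46.7 CPM with a median of 26.4 CPM in trained birds. Member 7 was at 329, 231, 291 and 403 CPM in untrained birds 2, 3, 4 and 12 and at 49.4 CPM in bird 5, against 31.1 to 68.6 CPM with a median of 48.9 CPM in trained birds. Member 8, the second most abundant in untrained birds, was at 1074, 1343, 917 and 626 CPM and at 108 CPM in bird 5, against 72.6 to 363 CPM with a median of 170 CPM in trained birds. Untrained bird 12 was the lowest of the 4 in members 6 and 8 and the highest in member 7, so it did not differ from birds 2, 3 and 4 in a single direction. The log2 fold changes were -2.23 ± 0.4, -2.4 ± 0.38 and -2.13 ± 0.49 (SE).

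Members 9, 16 and 18, picked after their values were seen, repeated the arrangement of members 3 to 8. Member 9 was at 683, 355, 467 and 265 CPM in untrained birds 2, 3, 4 and 12, at 92.6 CPM in untrained bird 5 and at 38.6 to 101 CPM in trained birds. Member 16 was at 360, 430, 413 and 423 CPM, at 140 CPM in untrained bird 5 and at 38 to 151 CPM in trained birds. Member 18 was at 425, 523, 505 and 325 CPM, at 105 CPM in untrained bird 5 and at 36.6 to 202 CPM in trained birds. In all 3 of these members the trained birds and untrained bird 5 formed a lower range that did not reach the other untrained birds. All 3 were called lower, beside 3.48% of all genes tested, but the rule used this contrast. Their log2 fold changes were -2.36 ± 0.37, -1.63 ± 0.34 and -1.71 ± 0.39 (SE).

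Members 11 and 12 stood high in the order by their medians but were not called. In member 11 the trained birds ran from 21.7 CPM in bird 10 to 454 CPM in bird 9, with a median of 142 CPM, and untrained birds 2, 3, 4 and 12 had 279, 828, 872 and 674 CPM. Untrained bird 5 had 36.9 CPM, so both groups spread more than 10-fold and overlapped beyond bird 5. In member 12 the trained birds ran from 42.6 CPM in bird 7 to 210 CPM in bird 13, just under the 215 CPM of untrained bird 12, while untrained bird 5 had 53.8 CPM. The log2 fold changes were -1.52 ± 0.7 and -1.38 ± 0.54 (SE).

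**Figure D3:**
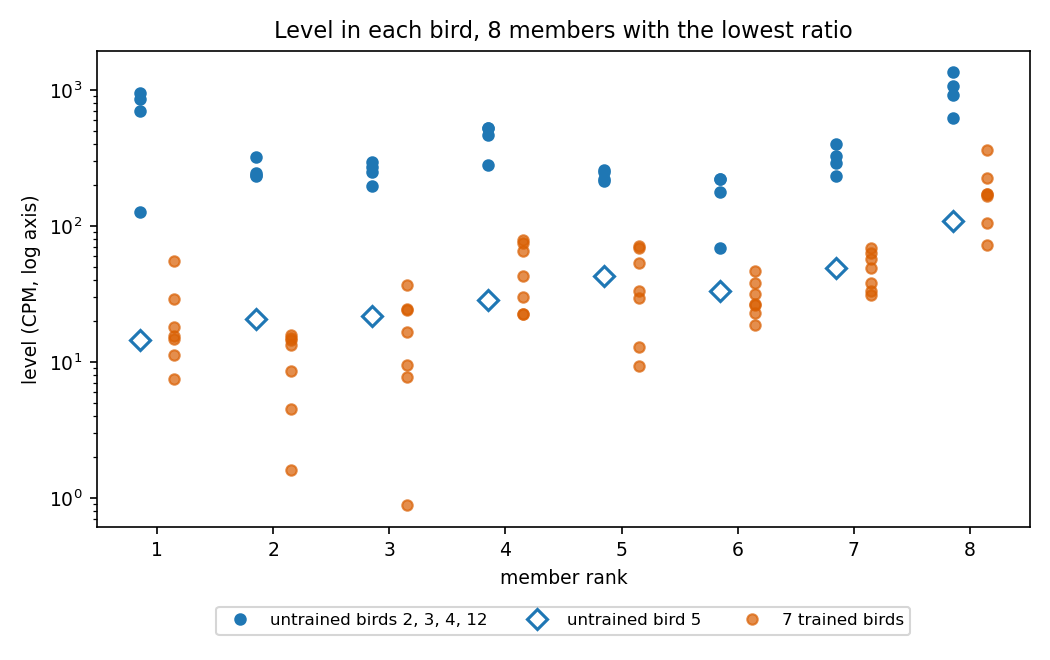
Level in CPM on a log axis of the 8 members with the lowest ratio, 1 point per bird, with untrained birds 2, 3, 4 and 12 as filled blue points, untrained bird 5 as an open diamond and the 7 trained birds in orange. Untrained bird 5 lies inside the trained range in members 1 and 3 to 8, and at 20.7 CPM just above the highest trained bird, at 15.7 CPM, in member 2.

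The 5 members with the highest untrained median were 26, 8, 39, 32 and 10, and 3 of them had a ratio of untrained to trained median under 4. Member 26 had the highest untrained median, with 1225, 1078, 1202 and 807 CPM in untrained birds 2, 3, 4 and 12 and 405 CPM in untrained bird 5. Its trained birds lay between 292 and 496 CPM apart from bird 13 at 52.7 CPM, with a median of 370 CPM. The log2 fold change was -1.47 ± 0.39 (SE). On plain CPM bird 13 was more than 5 times below the next trained bird, without correction for its TMM factor of 0.752. Member 10 was at 730, 895, 999 and 600 CPM in those 4 untrained birds, at 208 CPM in bird 5 and at 77.9 to 293 CPM in trained birds with a median of 138 CPM, a log2 fold change of -2.13 ± 0.4 (SE). In both members the untrained birds other than bird 5 lay above every trained bird.

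Member 32 varied among the trained birds. It was at 812, 732, 717 and 922 CPM in untrained birds 2, 3, 4 and 12 and at 440 CPM in bird 5. Trained birds 6, 7, 8 and 9 had 478, 433, 478 and 276 CPM, and birds 10, 11 and 13 had 96.1, 122 and 132 CPM. Untrained bird 5 and trained birds 6, 7 and 8 thus shared a middle level, below the other untrained birds and above the rest. The log2 fold change was -1.32 ± 0.39 (SE), and this member was not called.

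The 3 members with the smallest spread among trained birds were 39, 14 and 20. Member 39 had the smallest SD among trained birds, 0.15 on the log2(CPM + 0.5) scale: all 7 lay between 282 and 389 CPM, with a median of 312 CPM. Untrained birds 2, 3, 4 and 12 lay between 735 and 907 CPM and untrained bird 5 at 328 CPM, in the middle of the trained birds. Member 14 was at 112 to 195 CPM in trained birds (median 160 CPM), at 231 CPM in untrained bird 5 and at 416 to 684 CPM in the other untrained birds. Untrained bird 5 was here above all trained birds, though still nearer to them than to its own group. Member 20 was at 111 to 194 CPM in trained birds (median 136 CPM), at 175 CPM in untrained bird 5 and at 436 to 543 CPM in the other untrained birds. The log2 fold changes of members 39, 14 and 20 were -1.13 ± 0.23, -1.6 ± 0.25 and -1.52 ± 0.25 (SE).

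In members with a wide spread among trained birds, single birds stood at the extremes. Member 13 had the largest SD among trained birds, 1.67 on the log2(CPM + 0.5) scale, from 14.5 CPM in bird 13 to 599 CPM in bird 7, with a median of 106 CPM. Its untrained values were 517, 404, 301, 201 and 509 CPM in birds 2, 3, 4, 5 and 12, so trained bird 7 lay above every untrained bird. Member 15 carries the next locus tag after member 13 and had the same order of extremes, with 422 CPM in trained bird 7 and 12.9 CPM in trained bird 13. The ratio of member 13 to member 15 stayed between 1.12 and 1.79 in all 12 libraries. The 2 members therefore moved together from bird to bird, and how reads shared between similar or overlapping genes were treated is known only in part, so they may not be independent measurements. Neither was called. Member 43, with the second largest SD at 1.62, ran from 8.96 CPM in trained bird 13 to 205 CPM in trained bird 9, and its untrained values were 515, 473, 351, 157 and 187 CPM in birds 2, 3, 4, 5 and 12.

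At the edge of the rule the members run on into other genes without a step. Member 60 had an untrained median of 285 CPM, a trained median of 135 CPM and a log2 ratio of -1.0714. The next gene, just outside, had medians of 151 and 71.7 CPM and a log2 ratio of -1.0686. Of the 100 genes left out for their high untrained level, 9 had a log2 ratio at or below that of member 60. In member 60 untrained birds 2, 3, 4 and 12 had 413, 285, 366 and 204 CPM, untrained bird 5 had 115 CPM, and trained birds ran from 28.1 CPM in bird 13 to 251 CPM in bird 7. Trained bird 7 thus lay above untrained bird 12, and the groups overlapped in more than untrained bird 5.

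Leaving out untrained bird 5 raised the number of members without overlap between the groups, and the share over all genes tested rose too. All 7 trained birds lay below all 5 untrained birds in 8 of 60 members, beside 1.42% of all genes tested. Without untrained bird 5 this was so in 42 of 60, beside 7.29%. Since the members were chosen on these medians, no support is taken from either count. The 8 members were 2, 14, 28, 34, 36, 37, 49 and 50.

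In the separated members untrained bird 5 was the lowest untrained bird. Member 28 was at 60.2 to 112 CPM in trained birds, at 121 CPM in untrained bird 5 and at 244 to 307 CPM in the other untrained birds. Member 34 was at 66.9 to 131 CPM in trained birds, at 184 CPM in untrained bird 5 and at 263 to 302 CPM in the other untrained birds. Member 49 was at 74.9 to 348 CPM in trained birds, at 359 CPM in untrained bird 5 and at 665 to 795 CPM in the other untrained birds. Untrained bird 5 took a place between the groups in member 34, and next to the highest trained bird in members 28 and 49. Member 36 was at 7.42 CPM in trained bird 13, at 28.1 to 89.8 CPM in the other trained birds, at 97 CPM in untrained bird 5 and at 172 to 228 CPM in the other untrained birds. Member 37 was at 52.3 to 119 CPM in trained birds and at 133, 148, 244, 252 and 281 CPM in untrained birds 5, 2, 12, 3 and 4. Member 50 had the smallest SE of all members, with a log2 fold change of -1.32 ± 0.2 (SE), and was at 43.7 to 85.7 CPM in trained birds, at 112 CPM in untrained bird 5 and at 154 to 204 CPM in the other untrained birds.

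Single trained birds lay above the untrained median in few members. Of the 420 single values in trained birds, 414 lay below the untrained median of their gene. The members were chosen for a trained median far below that level, so nothing is read from this count. The 6 members with a trained bird above the untrained median were 13, 15, 33, 38, 40 and 53, with 1 value each. Trained bird 7 held that value in members 13, 15 and 38, bird 9 in member 33, and bird 10 in members 40 and 53. In member 40 trained bird 10 had 610 CPM, above untrained birds 2, 5 and 12 at 526, 205 and 464 CPM, while the other trained birds had 70.9 to 320 CPM. In member 53 the same bird had 339 CPM against 326, 591, 497, 281 and 184 CPM in untrained birds 2, 3, 4, 12 and 5. In member 33 untrained birds 12 and 5 had 51.3 and 50 CPM, below most trained birds, and untrained birds 2, 3 and 4 had 197, 338 and 179 CPM. None of these 6 members (0) was called.

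Untrained bird 5 was the lowest untrained bird in 55 of 60 members, whereas it was the lowest in 31.4% of the well-expressed genes. It lay inside the trained range in 48 members, above it in 10 and below it in 2. Over all well-expressed genes it lay inside that range in 83.7%, a share close to that of the members. Its level was 0.404 times the mean of the other untrained birds in the median member, from 0.0217 times in member 1 to 0.731 times, and 1.26 times the trained median. The 2 members in which it lay below every trained bird were 22 and 24. In member 24 it had 74.1 CPM, while untrained birds 2, 3, 4 and 12 had 2588, 474, 1393 and 201 CPM and the trained birds 105 to 321 CPM, so this member varied more among untrained than among trained birds.

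Untrained bird 12 also differed from birds 2, 3 and 4 in part of the members. It was below all 3 in 33 of 60 members, beside 33.2% of well-expressed genes, and above all 3 in 13. In 10 members its level was below 0.5 times the median of those 3 birds, between 0.144 and 0.485 times. These were members 1, 6, 19, 22, 24, 31, 33, 43, 48 and 58. In member 22 untrained birds 2, 3 and 4 had 1035, 1431 and 542 CPM, untrained bird 12 had 150 CPM and untrained bird 5 had 111 CPM, against 128 to 255 CPM in trained birds. Member 38 showed the opposite, with 839 CPM in untrained bird 12 against 213, 111 and 120 CPM in birds 2, 3 and 4 and 214 CPM in bird 5. No share over the well-expressed genes was computed for the counts above all 3 birds and below 0.5 times their median. These lists were made after the values were seen, and what set untrained bird 12 apart was not tested.

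**Figure D4:**
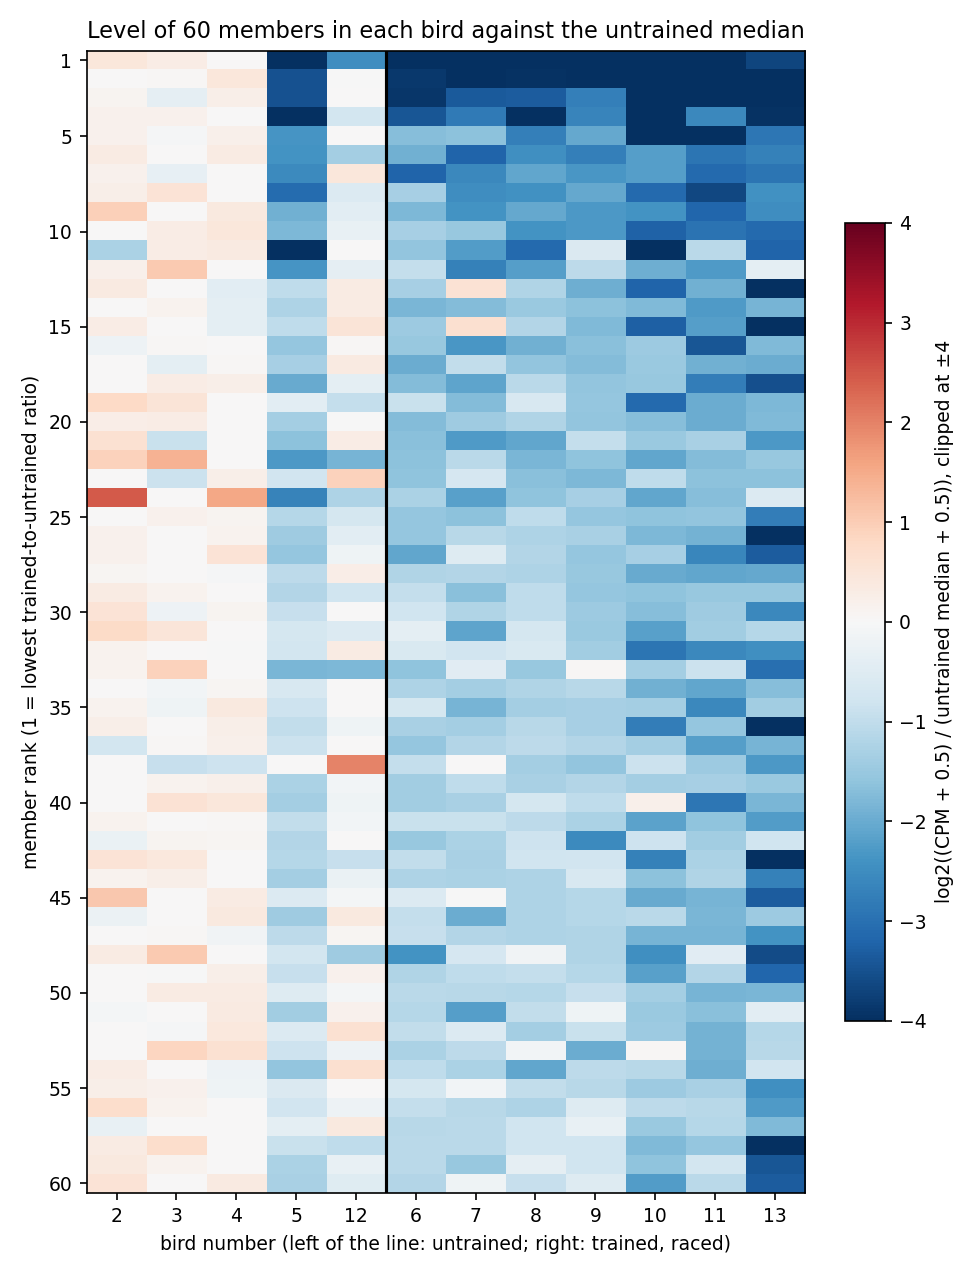
Level of each of the 60 members (rows, member 1 at the top) in each bird (columns, untrained left of the line and trained right of it) as log2((CPM + 0.5) / (untrained median + 0.5)), with colours clipped at ±4. Untrained birds 2, 3 and 4 are near white in most rows, with exceptions such as member 24 in birds 2 and 4. Untrained bird 5 is blue in most rows like the trained birds. Untrained bird 12 is blue in a few rows such as members 1, 22 and 24, and trained bird 13 is the darkest column.

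Among trained birds, bird 13 was the lowest in 27 of 60 members and bird 11 in 14, while birds 6, 7, 8 and 9 were the lowest in 1, 6, 2 and 3 and bird 10 in 7. These counts and the levels below are on plain CPM, and no share over the other well-expressed genes was computed for the counts. Over the well-expressed genes kept without it, bird 13 had a median log2 ratio to the untrained median of -0.13, the lowest of all birds. The TMM factor of bird 13 was 0.752, against 0.98 to 1.07 in the other libraries. Bird 7 was the highest in 16 members. Bird 13 was the highest in 5 (members 1, 12, 24, 42 and 54), so it was not low throughout. In 17 members it was below 0.5 times the next lowest trained bird. The level in the median member, relative to the untrained median, was 0.389 to 0.425 times in birds 6, 7, 8 and 9, and 0.289, 0.273 and 0.189 times in birds 10, 11 and 13. Untrained bird 5 had 0.42 times by the same measure, within the values of birds 6 to 9.

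The direction was also read in libraries that had no part in the choice. For each of 35 pairs of 1 trained and 1 untrained bird, 60 genes were chosen by the same rule from the other 10 libraries and compared between the 2 birds left out. In the 28 pairs without untrained bird 5, between 50 and 60 of the 60 genes were lower in the trained bird, with a median of 58, and the median log2 ratio lay between -2.21 and -1.04. Over all well-expressed genes of the same pairs, 40.8% to 55.1% were lower in the trained bird. In the 7 pairs with untrained bird 5, by contrast, the count was 30, 32, 31 and 31 of 60 against trained birds 6, 7, 8 and 9, and 42, 45 and 48 against birds 10, 11 and 13. Over well-expressed genes the share in those 7 pairs was 43.1% to 59.6%. The pairs share birds, so no test was made over them.

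**Figure D5:**
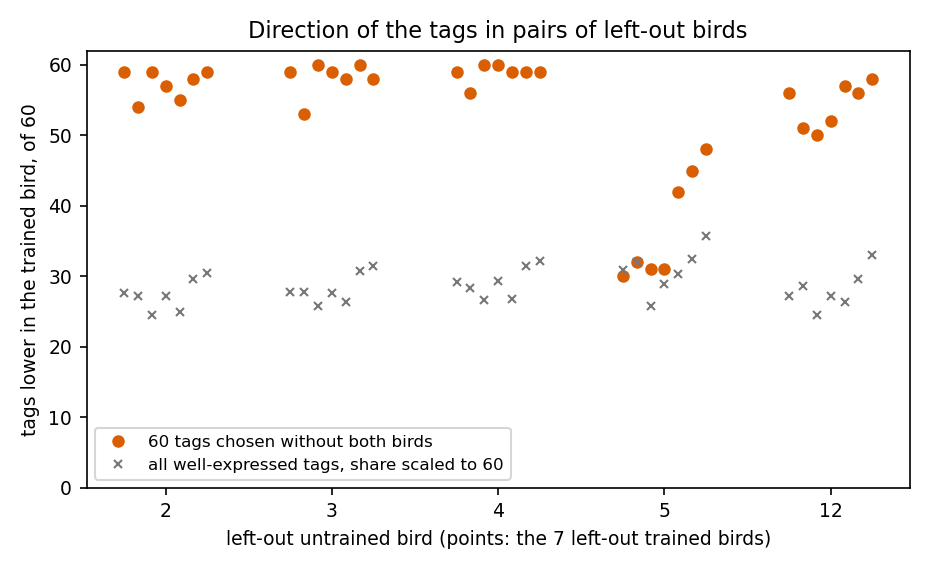
Number of 60 genes, chosen without either bird, that were lower in a left-out trained bird than in a left-out untrained bird (orange points, vertical axis from 0), by the untrained bird left out, with the 7 trained birds side by side in the order of their numbers; grey crosses give the share over all well-expressed genes scaled to 60. The points lie at 50 to 60 for untrained birds 2, 3, 4 and 12 and at 30 to 48 for untrained bird 5.

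Each bird was also read alone, on plain CPM, in 60 genes chosen from the other 11 libraries. The median log2 ratio of the bird to the median of the other untrained birds was 0.13, -0.0048 and 0.19 for untrained birds 2, 3 and 4, -0.38 for untrained bird 12 and -1.44 for untrained bird 5. For trained birds 6, 7, 8 and 9 it was -1.25, -1.26, -1.2 and -1.32, and for birds 10, 11 and 13 it was -1.71, -1.87 and -2.25. Over all well-expressed genes the same value lay between -0.13 and 0.1 in every bird. The reference median included untrained bird 5 for every bird except bird 5 itself, so its median log2 ratio cannot be compared directly with the others. Untrained bird 5 was below all other untrained birds in 56 of the 60 genes chosen without it. The same count was 3, 2, 0 and 4 for untrained birds 2, 3, 4 and 12. These birds were compared with a set that held bird 5, so their counts are no reference for its 56. Untrained bird 5 was below the median of the other untrained birds in all 60, beside 46.6% of all well-expressed genes. The 60 genes were chosen for a high median in the other untrained birds, which by itself puts a left-out bird lower against them. The well-expressed genes were not chosen that way, so 46.6% is no reference for this. The counts for untrained bird 5 are therefore a description, and no support is taken from them.

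The median spread between birds was larger over the members than over the other well-expressed genes, in both groups. The median SD on the log2(CPM + 0.5) scale was 0.68 in untrained and 0.7 in trained birds over the members, against 0.29 and 0.41 over the other 1403 genes. Without untrained bird 5 the untrained value was 0.33 against 0.2, and without trained bird 13 the trained value was 0.49 against 0.29. The spread was wider in untrained than in trained birds in 30 of 60 members (50%) with all birds, against 29.2% of the other well-expressed genes. Without untrained bird 5 it was so in 11 members (18.3%) against 14.7%, and without trained bird 13 as well in 15 (25%) against 25.8%. The members' large differences chose them and genes with large differences can also vary more, so no test of this contrast in spread was made.

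In the order of the locus tags the members were mostly scattered. Only 2 pairs of members lay within 3 tag numbers of each other, members 13 and 15 on consecutive tags and members 37 and 54 at a distance of 3. The ratio of members 37 to 54 ranged from 0.563 to 2.5 over the libraries, so this pair did not move together as closely as members 13 and 15. Of 87 tested genes directly next to a member in the files, 6 (6.9%) were called lower and 1 higher, with a median log2 fold change of -0.0036. Over all 11047 genes tested, 384 (3.48%) were called lower and 329 higher, with a median of 0.04. The difference in shares was not tested. No positions in the genome were used, since the tags are not tied to an assembly here.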

How the data were processed

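The authors deposited 1 table of whole-number counts per gene for each of 12 libraries of total RNA (TriReagent extraction, TruSeq RNA library kit, per the labels' protocols). Tools named in the submitters' processing notes, with no role stated, are STAR, HTSeq, DESeq2, bcl2fastq 2.20 and FastQC 0.11.5. No genome build, annotation or strand setting is stated in the labels or files, so overlapping and near-identical genes may share reads. The 5 summary rows at the end of each table, which held 24% to 27% of the reads in it, were left out of totals and tests.

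From the counts, CPM was computed by library total over genes. The contrast was fitted with edgeR 4.0.16 in R 4.3.3 (filterByExpr, TMM, robust dispersions, quasi-likelihood F test, two-sided, Benjamini-Hochberg adjustment over 11047 genes, threshold 0.05), tried on simulated data, and with DESeq2 1.42.0 as an alternative. Fold changes are on the TMM scale. The SE is the absolute log2 fold change divided by the square root of F. Intervals are not given. Members and lists were chosen with earlier results of these data known. Members described in full were the 8 lowest ratios, the 5 highest untrained medians, the 3 largest and 3 smallest SD among trained birds and the edge of the rule, and further ones were chosen after their values were seen. Lists of named genes and cell type markers could not be applied to locus tags.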

Additional observations from a re-analysis of the deposited data

Results flagged for a closer look

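Of 38 sets of values in 1 group (the summed level, the median ratio and the members given in full), 10 held a bird far from the rest by an extreme-value test. Chance gives about 1 in 20 for a single set, but these sets reuse the same 12 birds and genes chosen by these values, so that rate is no reference for the count. In 9 of them it was untrained bird 5. Its summed level was 12.99 on the log2 CPM scale, against 14.27 in the next untrained bird, and its median log2 ratio to the untrained median was -1.251, against -0.07. On the log2(CPM + 0.5) scale it had 4.405 in member 2, 4.474 in member 3, 4.847 in member 4, 5.446 in member 5 and 5.64 in member 7, where the next untrained birds had 7.861, 7.626, 8.143, 7.741 and 7.855. In members 39 and 20 it had 8.362 and 7.454, against 9.523 and 8.771. The last value was that of trained bird 13 in member 26, at 5.733 against 8.192 in the next trained bird.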

How the results depend on the processing

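The choice of members depended most on the minimum level: 29 of 60 were chosen again at 50 CPM, where 2803 genes competed, and 28 at 200 CPM, where only 631 were left. TMM scaling, group means, a pseudocount of 5 CPM, keeping the top 100 genes, and omitting both untrained bird 5 and trained bird 13 gave 58, 52, 59, 51 and 52 again, and leaving out 1 library 50 to 56. Members called lower were 39 to 48 under other scalings, filters and tools, 55 without both birds, and 17 to 52 with 1 library left out. Genes called lower and higher, 384 and 329, were 802 and 889 with DESeq2 and 1375 and 1602 without both birds; with 1 library left out they ranged from 85 to 801 and from 23 to 1095. Lower calls were 110, 85, 88, 145 and 801 without untrained birds 2, 3, 4, 12 and 5. They were 266, 301, 235, 255, 257, 154 and 605 without trained birds 6, 7, 8, 9, 10, 11 and 13. The cause was not tested. The median log2 fold change of the members ran from -1.52 to -1.3 with 1 library left out and was -1.35 to -1.51 otherwise. The median count of genes lower in the left-out trained bird, 57, stayed at 56 to 58. Members with a wider spread in untrained birds, 30, were 15 without both birds and 11 to 41 with 1 library left out, 11 without untrained bird 5. The fold changes of members 1 and 2 kept their direction in all 17 alternatives. The choice of these members as the lowest ratios makes that nearly certain. No paired analysis was made, because the groups held different birds and the labels give no pairs.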
